A study of Mus musculus with 12 samples.

Results

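The 10 genes studied here regulate the passage of cells through the division cycle, and their RNA was measured in esophagus and liver of mice with an inducible Nanog transgene: E2f1, E2f2, E2f3, E2f4 and E2f8 of the E2F family, Rb1, Rbl1 and Rbl2 of the retinoblastoma family, and the later-acting factors Mybl2 and Foxm1. They were taken as all non-control probes whose RefSeq accession belongs to one of these symbols, which gave 14 probes for 10 genes of 41174 probes and 16535 named genes on the array. RNA was measured on 12 one-colour Agilent arrays, 1 per organ of each of 6 male mice aged 8 months on a mixed 129Sv/C57BL6 background. The 3 TG mice carried tetO-Nanog at 1 Col1a1 allele and rtTA at 1 Rosa26 allele (Col1a1tetO-Nanog/+;Rosa26rtTA/+), and the 3 CTR mice carried rtTA without the transgene (Col1a1+/+;Rosa26rtTA/+). Every mouse, CTR included, drank doxycycline at 0.2 mg/ml in 7.5% sucrose for 48 h. The activator rtTA comes from the Rosa26 locus, which is active in most cell types, so the design limits induction neither to the epithelium nor to hepatocytes. Whole-organ RNA was used, in which fewer cells of a type and less RNA per cell cannot be told apart.

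As background, E2F factors bind DNA with a DP partner and switch on genes needed to enter S phase, while Rb1 and its relatives hold them in check until cyclin-dependent kinases phosphorylate the Rb proteins. In resting cells E2f4 acts with Rbl2 or Rbl1 and the MuvB proteins to keep cell cycle genes silent; later in the cycle MuvB works instead with B-Myb, encoded by Mybl2, and with Foxm1 to switch on the genes of G2 and mitosis. In the esophagus cells divide in the basal layer, whereas most hepatocytes of an adult liver are at rest.

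The promoters of these genes can carry the elements through which the same proteins act. Windows of 250 bases upstream of RefSeq starts (GRCm38.p6) were found for 7 of the 10 genes, in 9 windows, and E2f4, Foxm1 and Rb1 had no entry. In the RefSeq gene table of that build 4 of the 9 starts lie within 1 base of the outer end of the gene (Rbl1, Rbl2 and the first starts of E2f2 and E2f3). The other 5 lie inside the gene, by 466 bases for E2f1, 477 for E2f8, 308 for Mybl2, 1673 for the second start of E2f3 and 8508 for that of E2f2, so these windows hold sequence of the gene itself and not the region before its outermost start. Both strands were searched for an E2F site (TTTGGCGC, TTTCCCGC, TTTCGCGC or TTTGCCGC), a CHR element (TTTGAA or TTCGAA), the element bound by MuvB, and a CCAAT box (CCAAT). An E2F site was found for 2 of the 7 genes, Rbl1 and E2f3, a CHR element for 4 and a CCAAT box for 3. By window the counts were 2, 4 and 4 of 9. Over all 32851 windows the shares holding each were 1.86%, 17.1% and 33.8%. Rbl1, E2f3 and E2f8 are shown because 2 of them hold the E2F site and the third is the member that splits the livers; the matches are in capitals, none of them overlaps another, and all 3 windows lie on the minus strand, at chr2:157204535-157204784, chr13:29986064-29986313 and chr7:48881597-48881846, written 5′ to 3′ towards the start.
Rbl1: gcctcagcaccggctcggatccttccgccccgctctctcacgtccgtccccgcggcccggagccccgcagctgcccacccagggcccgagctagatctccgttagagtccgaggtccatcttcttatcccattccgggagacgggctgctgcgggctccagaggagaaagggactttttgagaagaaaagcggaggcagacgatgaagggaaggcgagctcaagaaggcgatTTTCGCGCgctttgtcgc
E2f3: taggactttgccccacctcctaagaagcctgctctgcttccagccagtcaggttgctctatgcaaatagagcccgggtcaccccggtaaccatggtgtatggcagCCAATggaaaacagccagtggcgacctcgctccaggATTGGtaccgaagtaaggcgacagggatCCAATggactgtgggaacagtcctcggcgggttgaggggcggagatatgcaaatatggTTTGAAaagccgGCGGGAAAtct
E2f8: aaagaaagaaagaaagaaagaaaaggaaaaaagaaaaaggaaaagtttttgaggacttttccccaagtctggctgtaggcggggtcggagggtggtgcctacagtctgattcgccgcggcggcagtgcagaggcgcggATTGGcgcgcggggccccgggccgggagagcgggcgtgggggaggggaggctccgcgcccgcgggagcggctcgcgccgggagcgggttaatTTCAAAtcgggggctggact
In Rbl1 the E2F site TTTCGCGC ended 11 bases before the start. In the first of the 2 starts of E2f3 the site read GCGGGAAA, on the opposite strand, 4 bases before the start, with a CHR element 18 bases before it and CCAAT boxes at 77, 105 and 141 bases. An E2F site and a CHR element occur together in 0.259% of all windows. E2f8 carried a CHR element on the opposite strand at 15 bases and a CCAAT box at 108 bases. Rbl2 held a CHR element at 196 bases, the second start of E2f2 a CHR element at 26 bases and 3 CCAAT boxes, its first start a single CCAAT box, and the windows of E2f1, Mybl2 and the second start of E2f3, all inside their genes, had no match. These matches describe letters and not binding. Only the exact spellings above were searched, so a window without a match may still hold another form of a site.

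Levels are log2 signals relative to the 75th percentile of their own array, so that 0 is that percentile, and levels of different genes are not compared. The keratins Krt5, Krt4 and Krt13 and the epithelial factors Trp63 and Sox2 were high on every esophagus array, and albumin was at 9.75 to 10.16 on every liver array, so the organs matched their labels. Arrays of a group correlated at 0.953 to 0.988, and 56.4% to 81.8% of probes were well above background. On none of the 12 arrays did the Nanog probe rise well above background, and whether it lies in the transcript of the transgene is not stated in the labels, so it did not check the labels TG and CTR. Col1a1, whose locus holds the transgene, was at 4.50 to 4.88 on TG and 4.52 to 5.02 on CTR esophagi.

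Several arrays stood apart. Esophagus CTR2 alone among the esophagi had the thymus gene Rag1 well above background, at -0.02, and the linear summed level of 4 thymocyte markers was 5.59 there (in units of the array's 75th percentile) against 0.54 to 0.76 on the other 5. Esophagus CTR1 was the highest of its organ in heart and airway transcripts (summed levels of 161 and 253). Liver TG3 had the most probes well above background (81.8%) and liver CTR3 the fewest (56.4%). The clock gene Per2 was low on esophagi TG1 (-2.92) and TG2 (-2.46) against -0.73 to 0.26 on the other 4, and low on livers TG2 (-1.73) and CTR1 (-1.60) against 0.66 to 1.27 on the other 4. By the labels' mouse numbers, the esophagus of TG1 was thus in the low group and its liver in the high one, and for CTR1 the reverse, while in TG2 both organs were low. Whether the labels of esophagi TG1 and CTR1 were exchanged was not tested and cannot be told from these files, and results are also given without both where they change. The mouse numbers in the labels make the 3 replicates of a group separate animals.

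E2f1, the best known activator of S phase genes, had its lowest mean in the TG esophagus. Its probe (NM_007891) measured -2.60, -1.82 and -2.42 on the control esophagi (CTR1 to CTR3) and -3.11, -2.99 and -2.96 on the transgenic ones (TG1 to TG3). On the livers it stood at -2.25, -1.46 and -1.91 in CTR and at -1.98, -2.51 and -2.33 in TG. All 3 TG esophagi lay below every other array, with CTR2 the highest control, while TG and CTR livers overlapped. The group means fell in the order liver CTR (-1.87 ± 0.40), liver TG (-2.27 ± 0.27), esophagus CTR (-2.28 ± 0.41) and esophagus TG (-3.02 ± 0.08; SD, n = 3), and liver TG and esophagus CTR were not separated by their spread. A second E2f1 probe, printed at 10 spots per array with a median SD between spots of 0.15, stood at -3.94, -3.02 and -3.59 on CTR and at -4.29, -4.38 and -3.94 on TG esophagi, so that on this probe TG3 met CTR1.

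E2f2, another activator, had overlapping genotypes in both organs. It (NM_177733) stood at 0.14, 0.77 and 0.47 on CTR and at 0.69, 0.46 and 0.19 on TG esophagi. In liver it was at 0.38, -0.79 and -1.08 in CTR and at 0.05, 0.48 and -0.21 in TG. Liver CTR1 and TG2 were the highest livers. The means were 0.46 ± 0.32 in CTR esophagus, 0.45 ± 0.25 in TG esophagus, 0.10 ± 0.35 in TG liver and -0.50 ± 0.78 in CTR liver (SD, n = 3), with no neighbours in this order apart.

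E2f3, the third activator, had an SD of only 0.28 over the 12 arrays. On CTR esophagi it (NM_010093) was at -3.14, -3.0 and -2.81 and on TG esophagi at -3.19, -3.33 and -3.21. The livers stood at -3.12, -2.68 and -3.06 in CTR and at -2.78, -3.08 and -2.33 in TG. The TG esophagi lay just below the lowest CTR esophagus, and the livers overlapped. The order was liver TG (-2.73 ± 0.38), liver CTR (-2.95 ± 0.24), esophagus CTR (-2.98 ± 0.17) and esophagus TG (-3.24 ± 0.08; SD, n = 3). Its dimmer second probe was not well above background on 4 of the 12 arrays.

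E2f4, the E2F of resting cells that works mainly as a repressor, kept a narrow range. The probe (NM_148952) gave -2.03, -1.83 and -2.15 on CTR and -2.0, -1.77 and -1.81 on TG esophagi. It gave -2.34, -2.50 and -2.57 on CTR and -1.91, -2.19 and -2.67 on TG livers. The genotypes overlapped in both organs, and 5 of the 6 mice had more E2f4 in esophagus than in liver. The means were -1.86 ± 0.12 in TG esophagus, -2.0 ± 0.16 in CTR esophagus, -2.26 ± 0.38 in TG liver and -2.47 ± 0.12 in CTR liver (SD, n = 3), and the 2 organs were free of overlap in CTR but not in TG mice.

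E2f8, an atypical E2F that represses E2f1 and its targets and serves the polyploidy of hepatocytes, split the livers across the genotypes. In esophagus it (NM_001013368) was at -2.47, -1.42 and -1.82 in CTR and at -1.91, -2.30 and -2.07 in TG. Liver levels were -1.21 on CTR1 and -1.27 on TG2 against -3.19, -3.27, -2.77 and -3.30 on CTR2, CTR3, TG1 and TG3. The 2 livers lay clear of the other 4, and they are the ones with low Per2; of the 12 clock genes on the array, Ciart was also low there (-3.83 and -4.30 against 0.24 to 0.44) and the median of the list stood at -0.59 and -0.66 against 0.23 to 0.52 relative to the CTR livers. All 12 were well above background on livers TG2, TG3 and CTR2 and 11 on the other 3, the summed linear clock level was 36.9 to 175 over TG livers and 44.1 to 91.6 over CTR livers, and the part of the clock in the E2f8 levels was not tested. The list also holds Arntl, Npas2 and Clock, and its genes need not move together. Its median and sum are therefore no measure of clock phase. Clock genes were not alone in setting these 2 livers apart. The summed red cell markers were also lowest on these 2 livers (113 on CTR1 and 74.4 on TG2 against 144 to 186). The summed hepatocyte and thymocyte markers did not set these 2 apart, and the part of other cells was not tested either. The split was seen after the data were examined and runs across the labels, so no test is given. The group means, with liver SDs of 1.05 in TG and 1.17 in CTR, ran from -1.90 ± 0.53 in CTR esophagus through -2.10 ± 0.19 in TG esophagus and -2.45 in TG liver to -2.56 in CTR liver, with no neighbours apart.

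**Figure D1:**
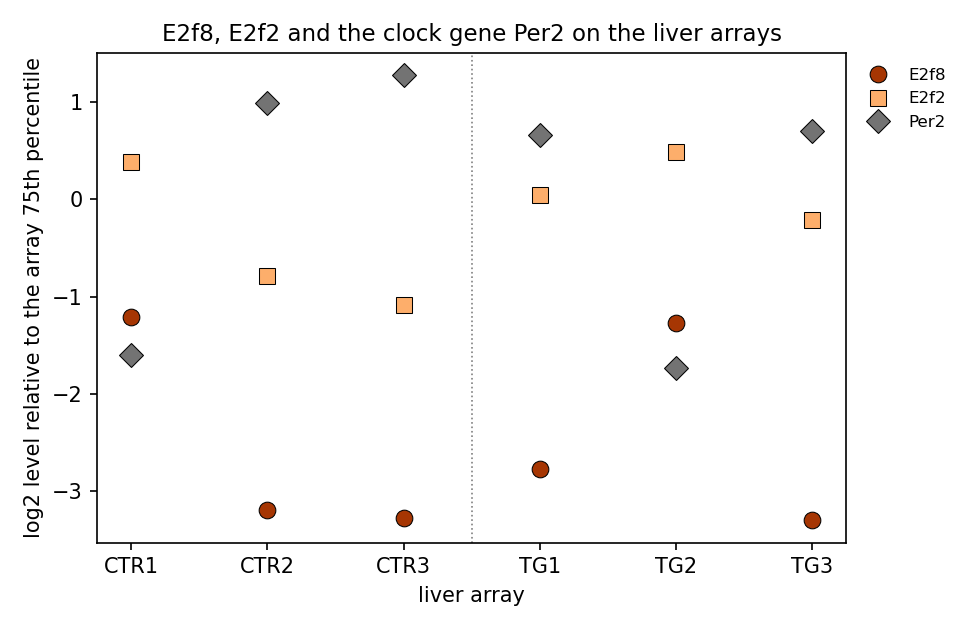
Log2 levels (y axis, relative to the array's 75th percentile) of E2f8, E2f2 and Per2 on each of the 6 liver arrays (x axis), to be read within a gene. E2f8 is at -1.21 on CTR1 and -1.27 on TG2 and at -2.77 or lower on the other 4, and Per2 is lowest on the same 2 arrays.

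Rb1, which encodes the retinoblastoma protein itself, separated the organs in all 6 mice. Its probe (NM_009029; 10 spots per array, median SD between spots 0.091) stood at 1.20, 2.00 and 2.11 on CTR and at 1.89, 2.06 and 1.85 on TG esophagi. The livers stood at 0.23, 0.13 and 0.14 in CTR and at -0.02, 0.41 and 0.25 in TG. Every esophagus lay above every liver, the genotypes overlapped in both organs, and esophagus CTR1 was the lowest of its organ. The order of the means was TG esophagus (1.93 ± 0.11), CTR esophagus (1.77 ± 0.50), TG liver (0.21 ± 0.22) and CTR liver (0.17 ± 0.05; SD, n = 3). Another Rb1 probe was well above background on 1 array only, liver TG3.

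Rbl1, which encodes p107, the pocket protein of cycling cells, showed the same arrangement. Esophagus levels (NM_011249) were -1.24, -0.76 and -0.79 in CTR and -1.1, -1.21 and -1.05 in TG. Liver levels were -2.08, -2.64 and -3.0 in CTR and -3.46, -2.54 and -2.24 in TG. Again all esophagi lay above all livers and the genotypes overlapped. The means were -0.93 ± 0.27 in CTR esophagus, -1.12 ± 0.08 in TG esophagus, -2.57 ± 0.47 in CTR liver and -2.75 ± 0.63 in TG liver (SD, n = 3).

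Rbl2, which encodes p130, the pocket protein of resting cells, had the narrowest range. It (NM_011250) was at 0.44, 0.07 and 0.63 on CTR and at 0.06, -0.05 and 0.01 on TG esophagi. On livers it was at -0.01, 0.22 and 0.14 in CTR and at 0.09, 0.04 and 0.18 in TG. The TG esophagi lay below the CTR esophagi, touching at TG1 and CTR2 (0.064 and 0.068), and the livers overlapped. The order was CTR esophagus (0.38 ± 0.28), CTR liver (0.12 ± 0.12), TG liver (0.10 ± 0.07) and TG esophagus (0.01 ± 0.05; SD, n = 3). On a second, dimmer Rbl2 probe the esophagi overlapped, at -2.11, -2.02 and -1.87 in CTR and -2.10, -2.15 and -2.33 in TG.

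Mybl2, encoding the B-Myb that turns MuvB into an activator, did not separate any groups. The probe (NM_008652) read -2.63, -2.20 and -2.18 on CTR and -2.44, -2.73 and -2.20 on TG esophagi. It read -2.07, -1.60 and -2.40 on CTR and -1.68, -2.29 and -1.73 on TG livers. The means were -1.90 ± 0.34 in TG liver, -2.02 ± 0.41 in CTR liver, -2.33 ± 0.25 in CTR esophagus and -2.46 ± 0.26 in TG esophagus (SD, n = 3), and all neighbours overlapped.

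Foxm1, the forkhead factor of G2 and mitosis, had its highest mean in the TG esophagus. It (NM_008021) stood at -2.98, -2.59 and -2.65 on CTR and at -1.60, -2.08 and -2.47 on TG esophagi. In liver it was at -4.14, -3.62 and -3.74 in CTR and at -2.73 and -3.30 on TG1 and TG3, while TG2, at -5.81, was not well above background. All TG esophagi lay above all CTR esophagi, and TG1 was the highest. The livers overlapped. The order was TG esophagus (-2.05 ± 0.44), CTR esophagus (-2.74 ± 0.21), CTR liver (-3.83 ± 0.27) and TG liver (-3.94 ± 1.64; SD, n = 3), the last with the dim array included.

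**Figure D2:**
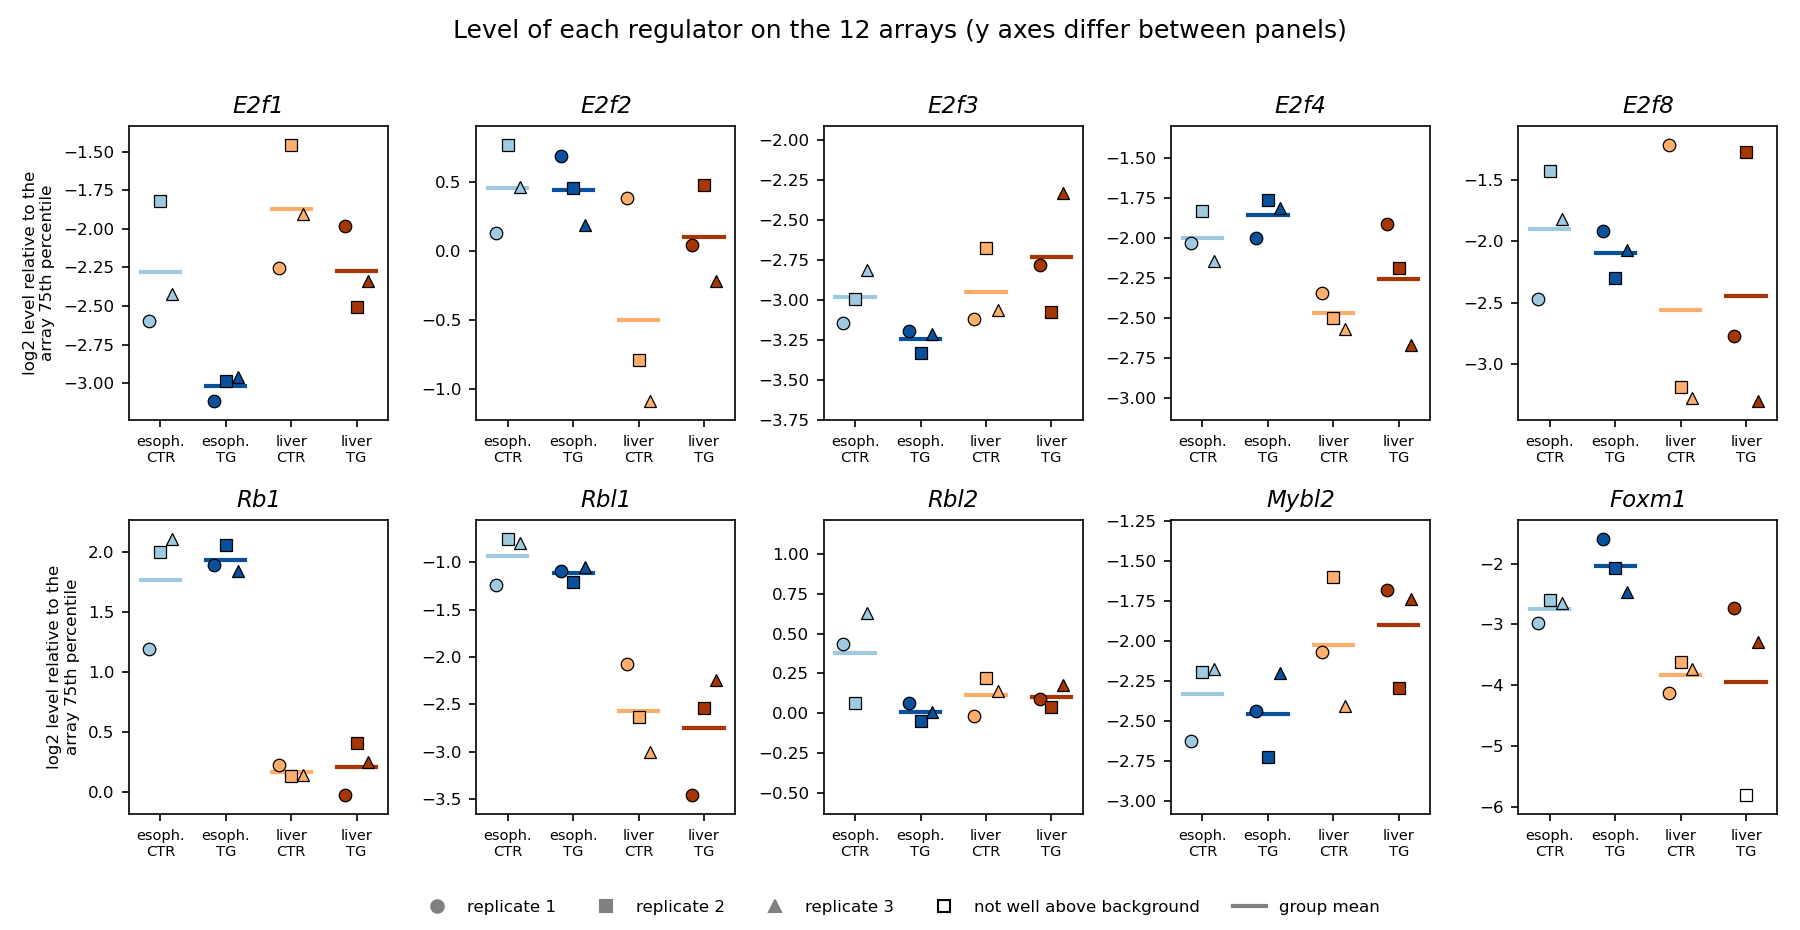
Log2 level of each of the 10 genes (y axis, relative to the array's 75th percentile, scale differing by panel) on the 12 arrays by group; symbols mark replicates, horizontal lines group means and the open symbol an array not well above background. Rb1 and Rbl1 separate the organs, and E2f1 and Foxm1 place the TG esophagi lowest and highest.

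The first comparison asks whether the regulators differ between TG and CTR esophagus. No member was called by limma (adjusted p = 0.9999 for each), nor was any of the 23208 features tested, which are named genes and unnamed probes (0%), while 923 features had an unadjusted p under 0.05. E2f1 differed by -0.74 (SE 0.26), or 1.67-fold lower in TG, with a 95% confidence interval of -1.31 to -0.17, and its second probe by -0.68 (SE 0.32). Rbl2 differed by -0.37 (SE 0.17), with an interval of -0.74 to -0.00084, and E2f3 by -0.26 (SE 0.21). Foxm1 differed by 0.69 (SE 0.63), with a 95% confidence interval of -0.71 to 2.10; the same difference had a standard error of 0.27 without liver TG2, the dim array.

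These 4 were the members whose TG and CTR esophagi did not overlap, E2f1, E2f3 and Rbl2 below and Foxm1 above, where 6.13% of all features lay below and 6.32% above in this way. Members at an unadjusted p under 0.05 numbered 2 of 10, both lower in TG, where the share over all features was 3.98%. Foxm1, higher in TG, was not among them. Its SE includes the spread of liver TG2, which is outside this comparison, and was smaller without that array. The count and its direction thus rest in part on a liver array. For such a separation the exact two-sided permutation test over 3 against 3 arrays gives p = 0.1, the smallest it allows. The members share the same 6 arrays and were picked with earlier results known, so the counts describe these arrays. The remaining members differed by -0.01 (SE 0.36) for E2f2, 0.14 (SE 0.20) for E2f4, -0.19 (SE 0.61) for E2f8, 0.16 (SE 0.23) for Rb1, -0.19 (SE 0.32) for Rbl1 and -0.12 (SE 0.26) for Mybl2. Each SE uses 1 spread per gene over all 4 groups, livers included. For E2f8 the SDs were 1.05 and 1.17 in TG and CTR liver and 0.19 and 0.53 in TG and CTR esophagus. Its SE is thus wider than the esophagi alone would give. The interval for Rb1 ran from -0.35 to 0.68 and that for Mybl2 from -0.70 to 0.46. Over the 10 members 3 were higher in TG and the median was -0.15, against -0.0034 and 49.6% higher over all features.

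Single arrays moved several of these values. Without esophagus CTR2, the array with thymus transcripts, E2f1 differed by -0.51 (SE 0.25) and missed the unadjusted threshold, and Rbl2 differed by -0.52. Without TG1 and CTR1 together E2f1 differed by -0.85, Rbl2 by -0.37 and Foxm1 by 0.35. Foxm1 differed by 0.47 without TG1 alone, and by 1.31 with slides as a fixed term. Rbl2 missed the unadjusted threshold without any single array other than CTR2, and without CTR3 it differed by -0.24. Within the slide that held esophagi TG1 and CTR2, E2f1 differed by -1.30, Foxm1 by 0.99, E2f3 by -0.20 and Rbl2 by -0.0042. Rb1 turned to -0.12 without CTR1. Features called over the whole table numbered 0 to 7 with single arrays left out, 7 without TG2, and no member was among them. Other tissues and the clock also differed between these arrays. The 5 heart markers, well above background on every esophagus, summed to 7.37 to 8.93 on TG and 14.3 to 161 on CTR esophagi, the 5 airway markers to 0.92 to 32.7 and 29.0 to 253, and the 6 fat markers to 31.0 to 118 and 91.3 to 148. The 3 measured red cell markers summed to 44.1 to 65.6 on TG and 89.3 to 149 on CTR esophagi, without overlap, with a median difference of -0.98, 3 of 3 at an unadjusted limma p under 0.05 and 0 called. The 12 clock genes stood at a median of -1.06, -1.03 and -0.02 on TG and -0.10 to 0.12 on CTR esophagi. The 4 thymocyte markers summed to 0.54 to 0.70 on TG and 0.69 to 5.59 on CTR. The part of each in the members' values was not tested; the values without CTR2 and without TG1 and CTR1 are those above.

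The genes downstream of these regulators are described from lists of targets, which were chosen with earlier results of these data known. The genes of a list share the same 6 arrays, so the counts describe these arrays and do not measure the activity of a regulator. Over all 23208 features 49.6% were higher in TG, and 433 were higher and 490 lower at an unadjusted limma p under 0.05. Of the 24 measured targets of B-Myb and Foxm1 in G2 and mitosis all 24 had a higher mean in TG esophagus, with a median of 1.18. An unadjusted limma p under 0.05 was reached by 13 and none was called. All 24 were well above background on each TG esophagus, but only 22, 21 and 23 on CTR1, CTR2 and CTR3. Targets dim in CTR were tested through the TG esophagus alone, so the filter largely fixed their direction. Ccnb1 and Ccnb2, the mitotic cyclins, differed by 1.68 (SE 0.31; limma adjusted p = 0.532) and 1.50 (SE 0.33), the kinesins Cenpe and Kif20a by 1.49 (SE 0.31) and 1.60 (SE 0.35). Of the 23 measured G1/S targets of E2F, 2 were higher and the median was -0.37, with 3 lower at an unadjusted limma p under 0.05 and none called. Dut, which keeps uracil out of DNA, differed by -0.65 (SE 0.22), the helicase subunits Mcm3 and Mcm4 by -1.25 (SE 0.43) and -0.71 (SE 0.29), and the mismatch repair gene Msh6 by -0.37 (SE 0.18). Without esophagus CTR2 the G1/S median was -0.17, with 6 of 23 higher and 0 at an unadjusted limma p under 0.05, and without TG1 and CTR1 together it was -0.62, with 0 of 23 higher and 7 at that threshold. The G2/M median was 1.35 and 0.93 in the same runs, with 24 of 24 higher in each.

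Array by array, Foxm1 and its target list had the same order within TG but not within CTR. Relative to the mean of the CTR esophagi, Foxm1 reached 1.14 on TG1, 0.67 on TG2 and 0.27 on TG3. The median of the G2/M targets reached 1.70, 1.26 and 0.62. On CTR1, CTR2 and CTR3 this median was 0.02, 0.18 and -0.30, where the Foxm1 levels were -2.98, -2.59 and -2.65. Whether the targets depend on Foxm1 was not tested. E2f1 stood at -0.83, -0.71 and -0.68 on the TG arrays, the G1/S median at -0.35, -0.50 and -0.31. On CTR1, CTR2 and CTR3, E2f1 was at -0.32, 0.46 and -0.15 and the G1/S median at -0.53, 0.52 and -0.03, so CTR2 was the highest control in both and CTR1 lay below the TG median values of the G1/S list. Mybl2, at -0.11, -0.39 and 0.14 on the TG arrays, did not follow the G2/M targets. TG1 was the highest esophagus for Foxm1 and the G2/M targets and CTR1 the lowest for Foxm1, so with the labels of those 2 arrays exchanged the Foxm1 difference would be negative and the highest G2/M array a control.

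**Figure D3:**
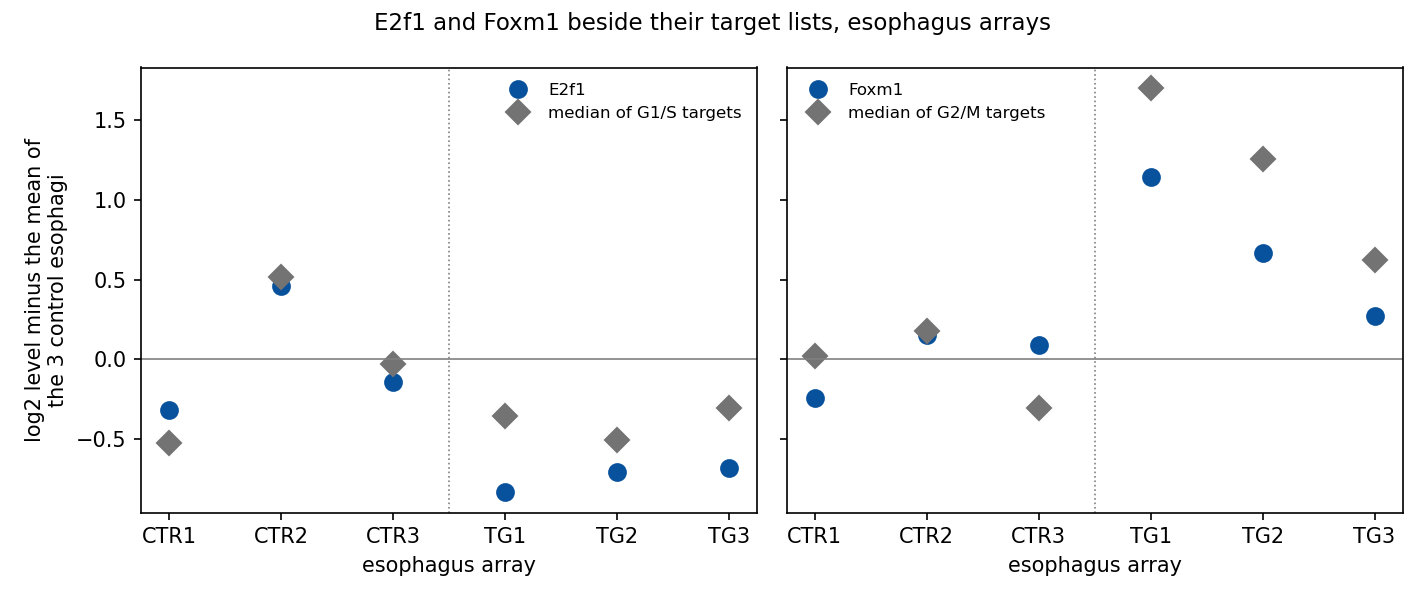
Log2 level minus the mean of the 3 control esophagi (y axis) on the 6 esophagus arrays (x axis): E2f1 beside the median of 23 G1/S targets, and Foxm1 beside the median of 24 G2/M targets. TG1 is highest and TG3 lowest of the TG arrays for Foxm1 and for its targets, while on the CTR arrays their orders differ. CTR2 is highest for E2f1 and the G1/S targets.

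The other parts of the pathway were mixed in the TG esophagus. Of 9 cyclins and kinases that act on Rb proteins 3 were higher, with a median of -0.33: the D cyclins Ccnd2, Ccnd1 and Ccnd3 differed by -0.97 (SE 0.27), -0.97 (SE 0.42) and -0.27 (SE 0.18), and Ccna2, the cyclin of S and G2 phase, by 1.23 (SE 0.40). Of 6 tested CDK inhibitors 3 were higher (median 0.14), with Cdkn2b at 0.54 (SE 0.23), Cdkn1b at 0.83 (SE 0.45), Cdkn2c at -0.26 (SE 0.22) and Cdkn1c at -0.19 (SE 0.21). The MuvB core had 1 of 4 higher (median -0.10), with Lin52 at -0.29 (SE 0.18), Rbbp4 at -0.21 (SE 0.15), Lin37 at 0.15 (SE 0.18) and Lin54 at -0.0012 (SE 0.19). Of the 6 other E2F, DP and Myb family genes 2 were higher (median -0.12); Myb, the blood cell relative of Mybl2, differed by -1.85 (SE 0.50), and by -1.60 without CTR2, and E2f6, Tfdp2 and Tfdp1 by 0.17 (SE 0.18), 0.21 (SE 0.23) and -0.19 (SE 0.24). None of these genes was called by limma.

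In liver the same genotype comparison gave no called member, and none of the 21247 features tested was called (0%); 1770 features, or 8.33%, had an unadjusted limma p under 0.05, and no member did. No member's TG and CTR livers were free of overlap, where 8.44% of all features lay above and 2.88% below. E2f2 differed by 0.60 (SE 0.35; limma adjusted p = 0.632) and E2f1 by -0.40 (SE 0.25; adjusted p = 0.644). With single arrays left out E2f2 ranged from 0.31 (without CTR3) to 1.04 (without CTR1) and E2f1 from -0.59 (without CTR1) to -0.19 (without CTR2). E2f3 and E2f4 differed by 0.22 (SE 0.21) and 0.21 (SE 0.20), E2f8 by 0.11 (SE 0.60), Mybl2 by 0.12 (SE 0.26) and Rb1 by 0.05 (SE 0.23). Rbl1 differed by -0.17 (SE 0.32), Foxm1 by -0.11 (SE 0.62) and Rbl2 by -0.01 (SE 0.16). The median over all features was 0.13 here, and 0.02 and -0.15 with quantile normalization and scaling on the array median; E2f3, E2f4, E2f8 and Mybl2 turned negative under both. Without liver TG2, Foxm1 differed by 0.82 and E2f8 by -0.47, and without liver CTR1 E2f8 differed by 0.79. Without liver TG2, 18 features were called in all, without TG1 6, without CTR1 5 and without CTR2 1, and none was a member. The G2/M targets had 8 of 14 tested genes higher and a median of 0.03, the G1/S targets 7 of 19 and -0.07, where 66.5% of all features were higher.

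The difference between the organs in the genotype effect was tested directly and called no member and none of 20017 features (0%), with 1133 at an unadjusted limma p under 0.05. It was 0.81 (SE 0.87) for Foxm1, -0.61 (SE 0.50) for E2f2, -0.48 (SE 0.29) for E2f3, -0.35 (SE 0.23) for Rbl2 and -0.34 (SE 0.36) for E2f1. For E2f8 it was -0.31 (SE 0.84), for Mybl2 -0.24 (SE 0.36), for Rb1 0.12 (SE 0.32), for E2f4 -0.07 (SE 0.28) and for Rbl1 -0.01 (SE 0.45). The limma adjusted p values lay between 0.871 and 0.998, and the median over all features was -0.11. For Foxm1 it was -0.12 without liver TG2. Of the G2/M targets tested in both organs 13 of 14 had a positive difference, with a median of 1.31 and 10 at an unadjusted limma p under 0.05, and of the G1/S targets 3 of 19, with a median of -0.36. Over all features 38.0% had a positive difference, and 357 were positive at that threshold. Without esophagus TG2, CTR2, CTR1 or CTR3, 2, 2, 1 and 1 features were called, none a member.

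**Figure D4:**
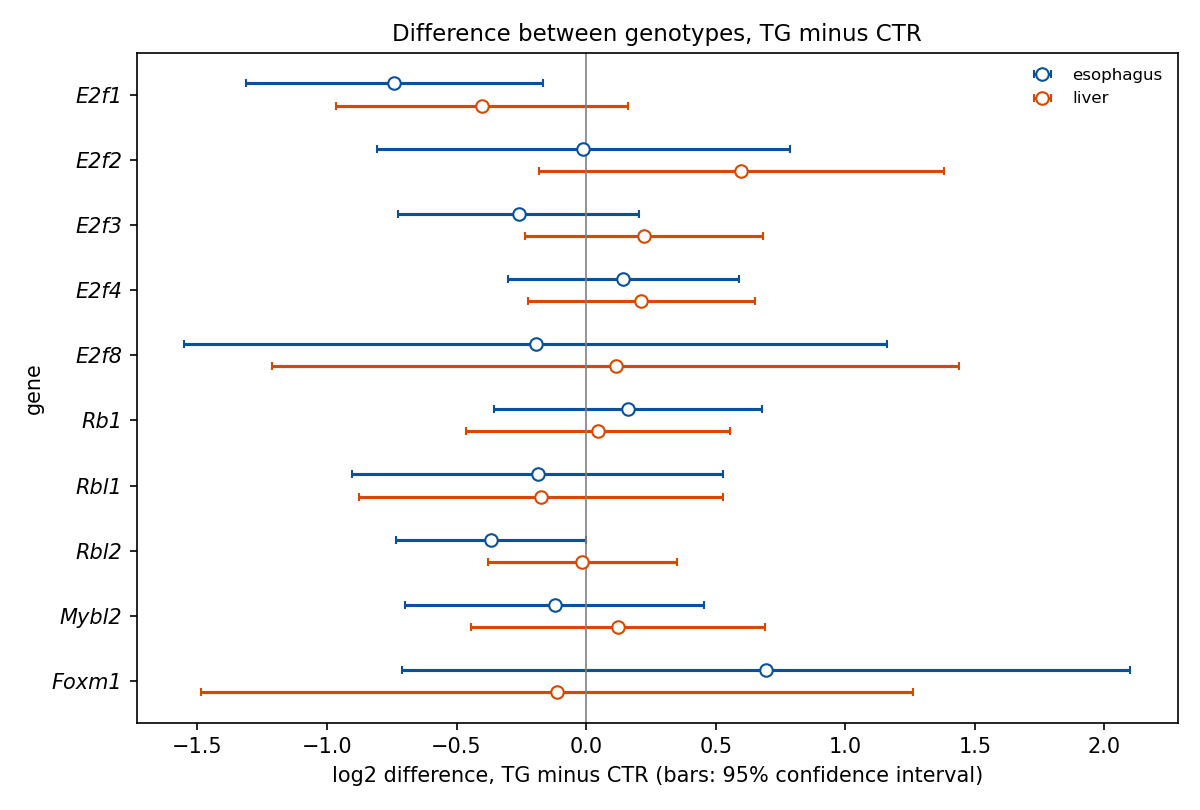
TG minus CTR difference (x axis, log2, with 95% confidence intervals from limma) for each of the 10 genes (y axis) in esophagus and liver. E2f1 at -0.74 and Rbl2 at -0.37 in esophagus have intervals below 0 before adjustment, and open symbols mark that none passed the adjusted threshold.

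Between the organs of the control mice 3 of the 10 members were called, all higher in esophagus, where limma called 62.4% of 23365 features, 27.8% higher and 34.6% lower in esophagus. The share of members called higher is near that of all features, and organ and RNA extraction method cannot be told apart. Rb1 was higher by 1.60 (SE 0.23), or 3.04-fold (limma adjusted p = 0.00015), and Rbl1 by 1.64 (SE 0.32), or 3.12-fold (adjusted p = 0.0012). E2f2 was higher by 0.95 (SE 0.36; adjusted p = 0.039). That call was lost in the blocked fit on the animal (adjusted p = 0.0732), with median scaling (0.0736), with slides as a fixed term (0.78, 0.0965) and without the filter on dim probes (0.0575). It was also lost without liver CTR2 (0.81), liver CTR3 (0.66), esophagus CTR2 (0.80), esophagus CTR3 (0.95), esophagus TG2 (0.95), and TG1 with CTR1 (1.11).

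Among the uncalled members of the control mice E2f4 differed by 0.47 (SE 0.20; limma adjusted p = 0.0634) and Foxm1 by 1.09 (SE 0.63; adjusted p = 0.158), each with esophagi and livers free of overlap. The share of all features free of overlap between the organs was not counted. With 62.4% of features called, such a separation is no trait of these members. E2f4 passed without liver TG1 or TG3 (adjusted p = 0.0401 and 0.028) and Foxm1 without liver TG2 (adjusted p = 0.0056); with a floor common to all arrays both passed, making 5 called members. E2f8 differed by 0.66 (SE 0.61), Rbl2 by 0.26 (SE 0.17), E2f3 by -0.03 (SE 0.21), Mybl2 by -0.31 (SE 0.26) and E2f1 by -0.41 (SE 0.26). Without esophagus CTR2, Rbl2 differed by 0.42 and passed (adjusted p = 0.0463).

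In the TG mice 4 members were called, where limma called 63.2% of 23912 features, 24.3% higher and 38.9% lower in esophagus. Rb1 was higher by 1.72 (SE 0.23; limma adjusted p = 9.33e-05) and Rbl1 by 1.63 (SE 0.32; adjusted p = 0.0013). Foxm1 was higher by 1.90 (SE 0.63; adjusted p = 0.0229), and by 0.97 without the dim array of liver TG2. That call was lost with normexp background (0.61, adjusted p = 0.0646), without esophagi TG1 and CTR1 together (1.67, adjusted p = 0.0974) and without esophagus TG1 (1.67, adjusted p = 0.0773) or TG2 (1.91, adjusted p = 0.0533). E2f1 was lower, at -0.75 (SE 0.26; adjusted p = 0.0273), and its second probe at -0.83. The E2f1 call was lost with quantile normalization (-0.42), median scaling (-0.44), the authors' table (-0.30) and slides as a fixed term (-0.74). It was lost too without esophagus TG1, TG2 or TG3 (-0.70, -0.76 and -0.78), TG1 with CTR1 (-0.70) or liver TG1 (-0.60). The median over all features was -0.36 in this comparison and -0.06 with median scaling.

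E2f3 differed by -0.51 (SE 0.21; limma adjusted p = 0.0536) and Mybl2 by -0.55 (SE 0.26; adjusted p = 0.0863) in the TG mice. Both passed with normexp background and without liver TG2 (-0.69 and -0.75). E2f3 passed too with a signal well above background required on all 6 arrays (limma adjusted p = 0.0467), the common floor (0.0403), the mean over its probes (-0.80, adjusted p = 0.0339) and without liver CTR2 (0.0498). E2f4 differed by 0.40 (SE 0.20) and passed without liver TG1 (0.57, adjusted p = 0.0312). E2f2, E2f8 and Rbl2 differed by 0.34 (SE 0.36), 0.35 (SE 0.61) and -0.09 (SE 0.17). Single arrays left out gave 2 to 6 called members, 2 without esophagus TG1 or TG2. With Rb1 taken as the mean of both its probes, one of them dim, its difference was 0.22 in CTR and 0.46 in TG mice and was not called.

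Mouse by mouse, Rb1, Rbl1 and Foxm1 were higher in esophagus than in liver in 6 of 6 animals, by 0.97 to 1.97 for Rb1 and 0.84 to 2.36 for Rbl1. For Foxm1 it was 0.83 to 1.16 in 5 of them, and in the mouse of TG2 the liver array was not well above background. The values of TG1 and CTR1 rest on the mouse numbers of the esophagi named above. E2f1 was lower in esophagus in 6 of 6, by -1.13 to -0.34. The share of all features that went the same way in 6 of 6 was not counted. E2f8 was lower in esophagus in the mice of TG2 (-1.03) and CTR1 (-1.25), whose livers had high E2f8, and higher in the other 4 by 0.86 to 1.77. Pairs of the 2 organs on a shared slide gave 1.07 to 1.92 for Rb1, 1.28 to 2.36 for Rbl1 and, leaving out the pair with the dim array of liver TG2, 0.64, 1.48 and 1.13 for Foxm1.

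**Figure D5:**
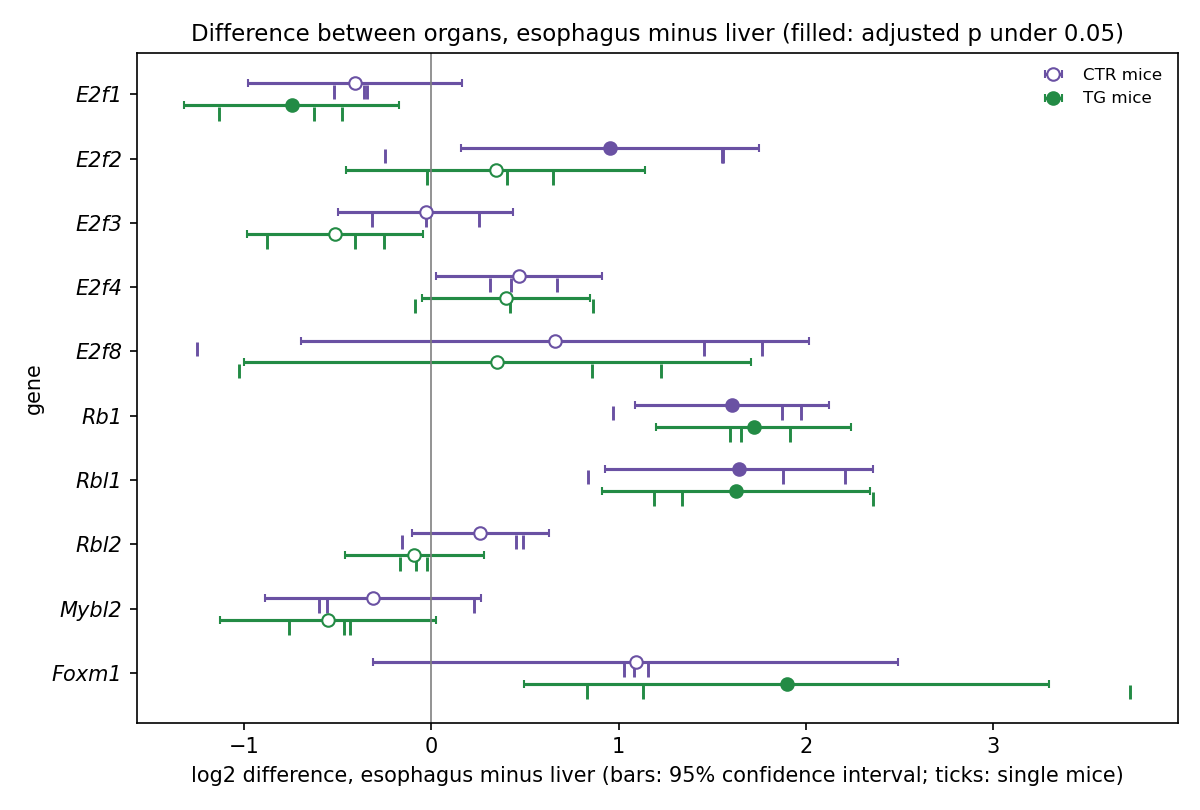
Esophagus minus liver difference (x axis, log2, with 95% confidence intervals from limma) for each gene (y axis) in CTR and TG mice; ticks are single mice (for Foxm1 in TG2 against a liver array not well above background) and filled circles are calls. Rb1 and Rbl1 are called in both genotypes, E2f2 in CTR mice, and Foxm1 and E2f1 in TG mice.

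Other genes of the pathway differed between the control organs as follows. Of the 21 tested G2/M targets 15 were called higher in esophagus and 1 lower, with a median of 1.61, led by Cdc25b, a phosphatase of mitotic entry, at 3.88, Top2a at 3.39 and Tpx2 at 2.85. Of 23 G1/S targets 9 were called higher and 2 lower, among them the replication genes Uhrf1 (3.96) and Cdc6 (2.61). Of the 6 CDK inhibitors 5 were called higher, with Cdkn1a at 4.06, Cdkn2b at 3.90 and Cdkn2c at 2.29. Of the Rb kinases and cyclins 3 of 9 were called higher, among them Ccnd2 (4.21) and Ccnd1 (1.82), and 1 lower, Cdk6 (-1.39). Myb (4.76) and E2f6 (0.98) were called higher and E2f5 (-0.81) lower, and of the MuvB core Rbbp4 (-1.14) and Lin54 (-0.58) were called lower. Over all features the median was -0.14, and 27.8% were called higher and 34.6% lower. The count of Rb kinases and cyclins called higher lay near that share. In the TG mice 18 of 24 G2/M targets were called higher and 0 lower (median 2.43), and 7 of 23 G1/S targets higher and 4 lower (median 0.08). Over all features 24.3% were called higher and 38.9% lower there. Of the 24 G2/M targets 14 passed the filter on dim probes in a liver group. The rest were tested through the esophagus alone, so the filter largely fixed their direction. On single arrays 13 to 17 were well above background in CTR livers and 16 to 22 in TG livers, so several differences were taken against dim signals.

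The genes whose profile over the 12 arrays was most like that of each member were found by the root mean square difference after centring, among 14302 genes. For Rb1 these were Natd1, Rab11a and Casp2 (0.16 to 0.17 on the log2 scale, where the SD of Rb1 itself over the arrays was 0.90), and for Rbl1 Sh3tc2 and Zfp61 (0.20 to 0.22; SD 0.93). E2f1 was nearest to Prkacb, Sco1 and D030056L22Rik (0.24 to 0.25; SD 0.51), and E2f2 to Glt28d2, Zfp324 and Tubb5 (0.22 to 0.23; SD 0.57). Foxm1 was nearest to Zhx2, Kifc5b and Mpp4 (0.46 to 0.51; SD 1.1) and E2f8 to Gm527, Tnfaip2 and Map3k14 (0.35 to 0.37; SD 0.76). E2f3 was nearest to Tmtc4, Tex264 and Shf (0.13 to 0.14; SD 0.28) and E2f4 to Bpgm, Mettl3 and Thap4 (0.13 to 0.14; SD 0.31). For Mybl2 they were Fam107b, Pgf and Zfp879 (0.12 to 0.17; SD 0.36) and for Rbl2 Nek9, Paf1 and Ylpm1 (0.094 to 0.13; SD 0.20). Among the members the nearest pairs were E2f3 with Mybl2 (0.20), E2f3 with Rbl2 (0.27) and Rb1 with Rbl1 (0.32). E2f3 and Rbl1, which each hold an E2F site of different spelling in the windows printed above, were 1.03 apart. The measure is not scaled, and their SDs of 0.28 and 0.93 alone keep them from being a near pair. Their distance therefore tells nothing about the sites.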

How the data were processed

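RNA from esophagus and liver of 6 mice was hybridised to 12 one-colour Agilent arrays on 5 slides, 1 array per organ and mouse. The deposited scanner files hold spot intensities, which Agilent Feature Extraction 10.7.1.1 had background-subtracted, per the file headers. A deposited table of log2 values, whose columns share 1 median of 7.27, served as an alternative; per the submitters' processing notes limma was used, and how it treated background is not stated there.

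Here the log2 processed intensity minus the 75th percentile of its array was used, spots of a probe were averaged without 1311 outlier spots, and each gene was read from its brightest probe. Control spots were left out; 17800 of 41174 probes had no gene symbol and were tested as single features. RefSeq accessions were named through a RefSeq gene table. Testing required a signal well above background throughout at least 1 of the groups compared, that is on its 3 arrays. The test was limma 3.58.1 (R 4.3.3) on 4 groups with 8 residual degrees of freedom, with Benjamini-Hochberg adjustment over all features of a contrast and a threshold of 0.05, checked on simulated data. Exact permutation tests used single genes. The number of arrays limits the precision.

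The 10 genes, the pathway and marker lists and the alternatives were chosen with earlier results of these data known. Every member is named. Of each pathway list those with the 4 smallest p in TG against CTR esophagus and the 3 largest organ differences in CTR are named, and for each member the 3 genes of most similar profile. A few genes these rules name are not reported here. Rag1, Ciart and the arrays set apart were singled out after their values were seen. The alternative background correction (normexp, offset 50) used median spot signals, since mean signals were not analysed here. Alternatives also covered the scaling, the filter on dim probes, the rule for probes, slides as blocks, the replicate number or animal as a block, each organ alone, esophagi TG1 and CTR1 left out together, and each array left out.

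The replicate numbers pair the organs of 1 mouse by the labels' mouse numbers. Deviations from the group means correlated at -0.09 to 0.15 between the organs of a mouse, and at -0.32 to 0.06 between TG and CTR arrays of 1 number, which name different mice. Figures were drawn with matplotlib 3.10.9.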

Additional observations from a re-analysis of the deposited data

How the results depend on the processing

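With 3 mice a group, 1 dim array (liver TG2 for Foxm1) sets wide intervals, and the genotype comparisons gave no call for any member under any setting run. With the replicate number or the animal as a block, 1 call was lost (E2f2 between the control organs, 0.95, adjusted p = 0.0732) and no other call of a member changed.

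Features called between TG and CTR esophagus numbered 1 with quantile normalization, slides as a fixed term or each organ alone, 2 with the authors' table or the common floor, 3 with median scaling or without TG1 and CTR1, and 4 with normexp, against 0. Leaving out single arrays gave 0 to 7 in esophagus, 0 to 18 in liver and 0 to 2 for the difference between organs, which also gave 2 without TG1 and CTR1. Between the control organs it gave 13293 to 15070, and 2 to 4 members; between the TG organs 13244 to 15385, and 2 to 6 members. Members called were 5 with the common floor in CTR and 2 without TG1 and CTR1 in TG mice. The mean over probes lost Rb1.

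Over single members 46 values changed sign outside the runs leaving out 1 array, and 600 kept both sign and side of the threshold. None was a call, and the cause was not tested. With quantile normalization the liver values of E2f3, E2f4, E2f8 and Mybl2 were -0.081, -0.16, -0.43 and -0.040, and the organ differences of E2f1, E2f4, E2f8 and Rbl1 were 0.019, 0.33, 0.27 and 0.28. With median scaling E2f2 was 0.025 in esophagus; E2f3, E2f4, E2f8, Mybl2 and Rb1 were -0.053, -0.062, -0.16, -0.15 and -0.23 in liver; the organ differences of E2f4, E2f8, Mybl2 and Rbl1 were 0.24, 0.0045, 0.068 and 0.30; and Rbl2 was 0.21 between TG organs. With normexp E2f8, Foxm1 and Rbl1 were -0.094, 0.13 and 0.0022 in liver, and with the common floor Foxm1 was 0.44 there. In the authors' table E2f8 and Mybl2 were -0.31 and -0.017 in liver, the organ differences of E2f1, E2f4, E2f8 and Rbl1 were 0.012, 0.13, 0.11 and 0.11, and E2f3 was 0.015 between control organs. With slides as a fixed term E2f2, Mybl2 and Rbl1 were 0.15, 0.13 and 0.057 in esophagus, E2f8, Foxm1, Mybl2 and Rbl2 were -0.13, 0.18, -0.0058 and 0.080 in liver, and the organ differences of Mybl2, Rb1 and Rbl1 were 0.13, -0.013 and 0.15. Slides as a random term gave 0.0021 for E2f2 in esophagus and 0.0060 for the organ difference of Rbl1, the mean over probes 0.040 for Rbl2 between TG organs. Without TG1 and CTR1, Rb1 was -0.10 in esophagus and its organ difference -0.15, and E2f3 was 0.049 between control organs.

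Leaving out single arrays, the values that changed sign ranged in esophagus from -0.17 to 0.14 for E2f2, -0.48 to 0.046 for E2f8, -0.27 to 0.015 for Mybl2 and -0.12 to 0.33 for Rb1. In liver they ranged from -0.47 to 0.79 for E2f8, -0.72 to 0.82 for Foxm1, -0.067 to 0.34 for Mybl2, -0.051 to 0.16 for Rb1, -0.43 to 0.18 for Rbl1 and -0.080 to 0.040 for Rbl2. The organ differences ranged from -0.28 to 0.10 for E2f4, -0.98 to 0.28 for E2f8, -0.12 to 1.42 for Foxm1, -0.17 to 0.29 for Rb1 and -0.37 to 0.24 for Rbl1. Between organs E2f3 ranged from -0.12 to 0.11 in CTR and E2f8 from -0.075 to 0.94 in TG mice.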
